A study of Homo sapiens with 4 samples.

Results

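Interleukin receptor genes were followed in ES2 cells, an established human ovarian cancer cell line, after treatment with liquiritigenin (Liq), a plant flavanone that the study used as an estrogen receptor beta agonist. The list held 10 genes (IL21R, IL7R, IL4R, IL2RG, IL13RA1, IL13RA2, IL15RA, IL10RB, IL20RB and IL17RA) of the 23228 genes in the deposited tables, and all 10 had a row. They had been chosen by symbol, with the fold changes of the same Liq and vehicle samples already known, so their values in that contrast are given as a description and not as a test. All cells were kept in phenol red-free medium with charcoal-treated serum and received vehicle or 100 μM Liq for 24 h, with 2 RNA samples per group. The dose comes from the methods of the study. ES2 is a single cell line, and nothing in the labels says whether samples of a group came from separate cultures, so the errors cover the spread between these samples, which may be technical.

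Class I cytokine receptors bind helical cytokines such as IL-4, IL-7, IL-13, IL-15 and IL-21, and class II receptors bind interferons and the IL-10 family. Both kinds lack kinase activity of their own. Many of them pair a ligand-specific chain with a partner chain. They signal through bound JAK kinases, which phosphorylate STAT transcription factors. The gamma chain encoded by IL2RG is shared by the receptors for IL-2, IL-4, IL-7, IL-9, IL-15 and IL-21 and carries JAK3. It is best known from lymphocytes, whereas epithelial and other non-blood cells usually answer IL-4 and IL-13 through IL4R paired with IL13RA1. IL17RA belongs to neither class. It is a chain of the separate IL-17 receptor family, which signals through adaptor proteins instead of JAK kinases, so the name of the group does not cover it.

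The libraries held 34573053 to 48933893 reads on genes, and 3 reads, the least taken as a signal, corresponded to 0.061 to 0.087 CPM (counts per 1000000 reads on genes). CPM values are scaled by the TMM method. Leukocyte transcripts were nearly absent. Of 21 leukocyte markers, 10 had 0 counts in every sample. These included CD3E, a chain of the T cell receptor complex, and PTPRC, the pan-leukocyte phosphatase, had 1 read in 1 Liq sample. CD14, a monocyte marker, had 3 to 11 reads. The summed level of the list was 7.67 to 8.0 CPM in vehicle and 12.0 to 12.6 CPM in Liq, and the difference came from NCAM1, which neural and other adherent cells also make. The other tested markers of the list, CSF1R and LYZ, were called lower with Liq (log2 fold changes of -1.34 and -1.27). Among ovarian and epithelial markers, KRT18 (mean 198 CPM in vehicle) and KRT8 (23.8 CPM) were present, PAX8 was low (1.21 CPM in vehicle and 0.458 CPM in Liq), EPCAM had 1 to 3 reads and CDH1 had 0. Of the defining ovarian and epithelial markers, PAX8 was thus low and EPCAM near 0 in cells labelled as ovarian cancer, while KRT8 and KRT18 were expressed.

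The listed promoter windows of the chains that differed most between Liq and vehicle are shown first, because these windows are of unlike kinds. Each window holds the 250 bases before the RefSeq start of transcription on the coding strand, in the GRCh38.p14 build, and capitals mark CG dinucleotides. The IL21R window lies at chr16:27427021-27427270 (plus strand), the IL7R window at chr5:35856641-35856890 (plus strand) and the IL4R window at chr16:27313724-27313973 (plus strand). In GRCh37 the gene models of IL4R and IL21R start at 27324989 and 27413495, nearer each other than these windows. The windows therefore cannot both lie at the first base of their gene models. Which of them lies elsewhere was not tested, so each window stands for its listed start only.
IL21R: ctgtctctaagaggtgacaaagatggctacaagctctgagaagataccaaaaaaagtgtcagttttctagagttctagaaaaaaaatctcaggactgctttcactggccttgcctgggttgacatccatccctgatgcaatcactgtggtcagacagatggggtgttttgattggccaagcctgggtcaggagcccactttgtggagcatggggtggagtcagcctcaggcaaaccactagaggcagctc
IL7R: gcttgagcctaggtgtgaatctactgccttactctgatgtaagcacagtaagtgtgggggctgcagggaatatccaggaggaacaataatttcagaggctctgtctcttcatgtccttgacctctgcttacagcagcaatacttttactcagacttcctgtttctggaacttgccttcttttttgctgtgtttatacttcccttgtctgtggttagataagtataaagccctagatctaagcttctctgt
IL4R: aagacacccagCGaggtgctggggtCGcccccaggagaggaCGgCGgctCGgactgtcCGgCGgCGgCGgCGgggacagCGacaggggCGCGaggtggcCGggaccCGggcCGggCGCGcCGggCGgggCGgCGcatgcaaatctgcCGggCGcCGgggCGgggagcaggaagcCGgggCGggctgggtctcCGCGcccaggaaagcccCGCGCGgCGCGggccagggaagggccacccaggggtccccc
The windows of IL21R and IL7R held 0 CG dinucleotides, whereas that of IL4R held 35. The median over 35116 RefSeq promoter windows was 11, and 6.1% of them held none. RefSeq windows were found for 8 of the 10 genes. Those of the well-expressed chains IL13RA1 and IL10RB held 28 and 17 CG dinucleotides, and those of the weakly expressed IL20RB and IL2RG held 4 and 3. For IL15RA, which was also weakly expressed, 4 windows were listed, with 20, 24, 4 and 25, so CG content did not follow level in every gene. IL13RA2 and IL17RA had no entry.

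These windows were also searched on both strands for 5 short motifs. The STAT motif TTCNNNGAA was found in 6.6% of all windows and, among these genes, only in IL15RA. The AP-1 motif TGACTCA (4.2% of all windows) was likewise found in IL15RA alone. The antioxidant response motif TGACNNNGC (10.9%) was found in IL15RA and IL10RB, and it overlapped an AP-1 match at 1 site of IL15RA that lies in 2 of its windows. The NF-κB motif GGANTTTCC (1.5%) was found in none of them, which says only that these letters are not in these windows. The unit AGGTCA of the estrogen response element (12.1%) was found in IL7R, on the opposite strand, starting 133 bases before the start of transcription. These are matches of letters and no binding was measured.

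Of the 10 genes, 8 had enough reads to be fitted. Liq was compared with vehicle across all 13546 tested genes by edgeR's quasi-likelihood test, and a gene was called at a fold change of at least 1.5 with a Benjamini-Hochberg adjusted p-value under 0.05. By this rule IL21R and IL7R were called higher with Liq and none of the 8 was called lower. Among all tested genes, 6.45% were called, 4.29% as higher and 2.16% as lower. At any fold change, 3 of the 8 (IL21R, IL7R and IL4R) passed the adjusted p-value, against 24.0% of all tested genes. The groups did not overlap in CPM for 5 of the 8, against 61.7% of all tested genes. Over the 8 chains the log2 fold changes had a median of 0.07, and over all tested genes one of 0.01. Of the 8 values, 4 were above and 4 below 0. Since the list was chosen on this contrast, nothing is read from these shares.

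**Figure D1:**
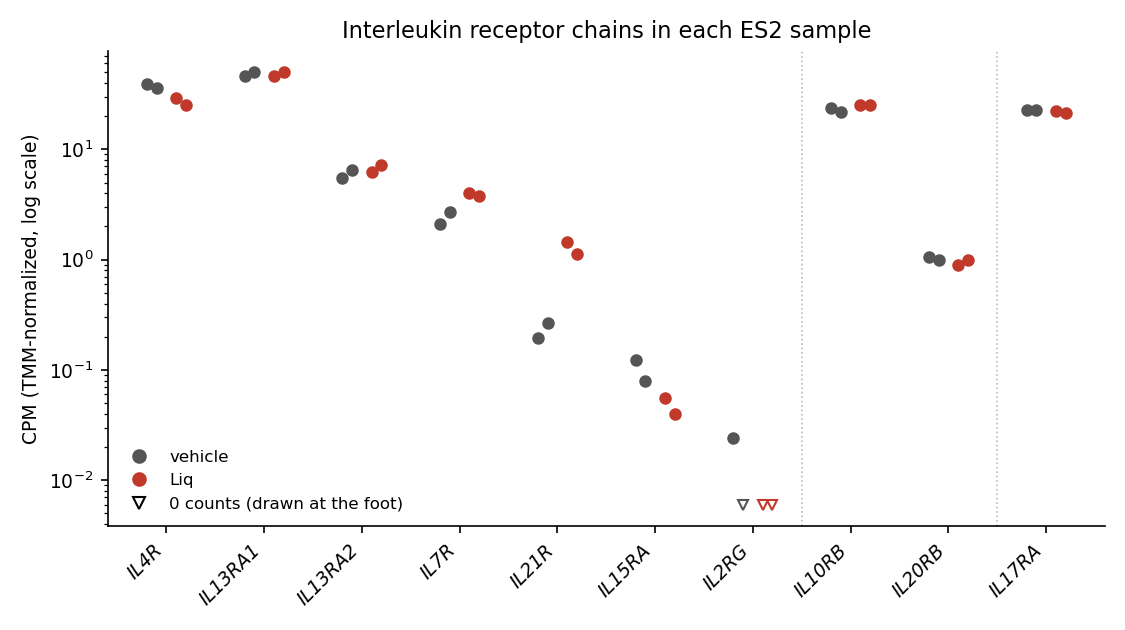
Level of each interleukin receptor chain in each ES2 sample, in TMM-normalized CPM on a log axis (grey, vehicle; red, Liq; 1 point per sample; open triangles, samples with 0 counts). The Liq points of IL21R and IL7R lie above both vehicle points and those of IL4R below them, while IL2RG has 1 read in 1 sample.

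IL21R encodes the ligand-specific chain of the IL-21 receptor and was the chain with the largest difference. Its vehicle samples held 8 and 10 counts, its Liq samples 51 and 56, or 0.195 and 0.267 CPM against 1.43 and 1.12 CPM. Both Liq samples were several-fold above both vehicle samples, and the groups did not overlap. The fitted fold change was 5.43, a log2 fold change of 2.44 (SE 0.36, 95% interval 1.71 to 3.17). Even with Liq the level was low, at 1.27 ± 0.23 CPM (SD, n = 2). Under the alternatives that could fit it, the log2 fold change ranged from 2.19 to 2.67 and the gene was called in all 10. It dropped out where at least 10 counts were asked of every sample, because a vehicle sample had 8. In the GENCODE annotation of GRCh37, IL21R spans chromosome 16 from 27413495 to 27463363 (plus strand), and 23.3% of its exon bases overlap the antisense gene IL21R-AS1, which has no row of its own in the tables. The strand setting of the counting is not given in the sources used here, so reads of both genes cannot be told apart. In bulk RNA, more cells with the transcript and more transcript per cell cannot be told apart either.

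IL7R, on chromosome 5 from 35852797 to 35879705 (plus strand), encodes the ligand-specific chain of the IL-7 receptor, which also serves the TSLP receptor. Its counts were 87 and 101 in vehicle and 143 and 190 in Liq, that is 2.12 and 2.70 CPM against 4.02 and 3.79 CPM. Both Liq samples were higher than both vehicle samples. The fold change was 1.62, a log2 fold change of 0.70 (SE 0.17, 95% interval 0.34 to 1.05). It was called in 9 of 11 alternative fits. Without vehicle replicate 1 the log2 fold change was 0.53, and with loess offsets that follow the expression level it was 0.54, both under 1.5-fold.

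IL4R encodes the chain that binds IL-4 and that both types of IL-4 receptor use. It lies on chromosome 16 from 27324989 to 27376099 (plus strand). The vehicle samples had 1592 and 1342 counts and the Liq samples 1033 and 1263, or 38.7 and 35.8 CPM against 29.0 and 25.2 CPM. Both Liq samples lay below both vehicle samples. The Liq level was 0.725 times the vehicle level, a log2 fold change of -0.46 (SE 0.09, 95% interval -0.66 to -0.27), and so did not reach 1.5-fold. The value ranged from -0.57 to -0.36 over 11 alternative fits and the gene was called in 0 of them.

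IL13RA1 and IL13RA2 encode the chains that bind IL-13. IL13RA1 signals together with IL4R, while IL13RA2 binds IL-13 tightly, has a short tail and is mostly regarded as a decoy. Both are on the X chromosome, IL13RA1 from 117861096 to 117928498 (plus strand) and IL13RA2 from 114238538 to 114254540 (minus strand). IL13RA1 was at 46.5 and 49.7 CPM in vehicle and at 45.9 and 49.8 CPM in Liq, so that the groups overlapped almost fully. Its log2 fold change was -0.01 (95% interval -0.18 to 0.17), and it kept its sign in 6 of 11 alternative fits. IL13RA2 was at 5.50 and 6.44 CPM in vehicle and at 6.21 and 7.19 CPM in Liq. These groups overlapped too, with a log2 fold change of 0.18 (95% interval -0.10 to 0.45).

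The balance between chains that work together was read within each sample, where it needs no normalization between libraries. The ratio of IL4R to IL13RA1 counts was 0.833 and 0.722 in vehicle and 0.632 and 0.505 in Liq. The Liq ratios lay below both vehicle ratios, and the mean log2 ratio differed by -0.46. The ratio of IL13RA2 to IL13RA1 counts was 0.118 and 0.130 in vehicle and 0.135 and 0.144 in Liq. It was higher in both Liq samples, although each chain alone overlapped between the groups, and the mean log2 ratio differed by 0.18. Between single Liq and vehicle samples the log2 difference ran from 0.06 to 0.29, and no error was computed for it. Groups of this size often lay apart, as 61.7% of all tested genes did in CPM, so no shift in this balance is read from it.

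IL15RA and IL2RG were at the limit of detection. IL15RA, the high-affinity IL-15 chain (chromosome 10 from 5985602 to 6020150, minus strand), had 5 and 3 counts in vehicle and 2 in each Liq sample. The pooled Liq rate was 0.458 times the vehicle rate, with an exact 95% interval of 0.101 to 1.71 that covers counting error only. No difference was detectable at this depth. IL2RG, the shared gamma chain (chromosome X from 70327254 to 70331958, minus strand), had 1 count in vehicle replicate 1 and 0 in the other samples, below the 3 reads taken as a signal, and 51.3% of its exon bases are shared with an unnamed gene model on the same strand. The pooled counts allow up to 0.0709 CPM in vehicle and 0.043 CPM in Liq (exact 95% limits). JAK3, the kinase that this chain carries, had 0 to 3 counts per sample.

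The class II chains IL10RB and IL20RB encode the second chains of the receptors for IL-10, IL-22 and interferon lambda and for IL-19, IL-20 and IL-24, in that order. IL10RB (chromosome 21 from 34638672 to 34683725, plus strand) was at 23.6 and 21.9 CPM in vehicle and 25.3 CPM in each Liq sample. The groups did not overlap, but the log2 fold change was only 0.15 (SE 0.09, 95% interval -0.04 to 0.35) and was not called. IL20RB (chromosome 3 from 136665072 to 136729927, plus strand) had 43 and 37 counts in vehicle and 32 and 50 in Liq, about 1 CPM in each sample. Its groups overlapped, with a log2 fold change of -0.09 (95% interval -0.64 to 0.45). The width of this interval, set by few reads, leaves room for a change of 1.5-fold downward.

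IL17RA (chromosome 22 from 17565844 to 17596583, plus strand) encodes the shared chain of the IL-17 receptors. It was at 22.9 and 22.6 CPM in vehicle and at 22.3 and 21.3 CPM in Liq. Both Liq samples were slightly lower, by less than the error of the fit (log2 fold change -0.06, SE 0.09, 95% interval -0.26 to 0.13).

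**Figure D2:**
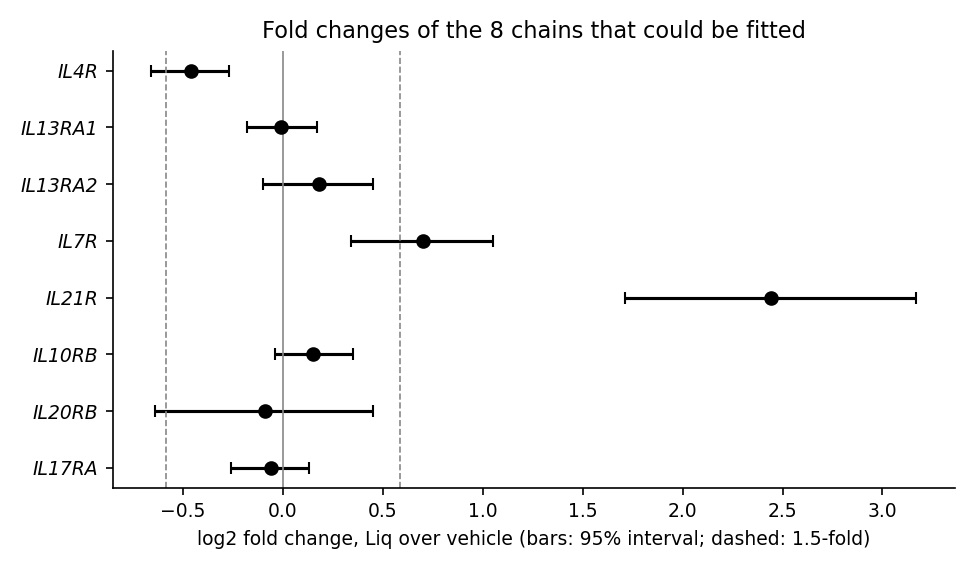
Log2 fold change, Liq over vehicle, of the 8 chains that could be fitted (points, edgeR estimate from 2 samples per group; bars, 95% interval; dashed lines, 1.5-fold in either direction). IL21R stands at 2.44 and IL7R at 0.70, IL4R at -0.46, and the intervals of the other 5 include 0.

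To compare levels between genes, CPM were divided by the length of the canonical GENCODE transcript, giving RPKM. In vehicle, IL13RA1 (12.0 ± 0.6 RPKM), IL10RB (11.7 ± 0.6) and IL4R (10.3 ± 0.6) were the most abundant (SD, n = 2). The samples of IL13RA1 and IL10RB overlapped (11.6 to 12.4 against 11.3 to 12.2 RPKM), and IL4R lay below both (9.89 to 10.7 RPKM). IL13RA2 followed at 4.46 ± 0.50 and IL17RA at 2.66 ± 0.03 RPKM. IL20RB and IL7R had nearly equal levels, 0.527 ± 0.021 and 0.525 ± 0.090 RPKM, and did not differ beyond their spread. IL15RA and IL21R were lower still, at 0.064 and 0.048 RPKM with overlapping samples, and IL2RG was last at 0.0082. In Liq, IL10RB (13.0 RPKM) stood first, above both samples of IL13RA1 (11.5 to 12.5 RPKM). IL4R ranked below both at 7.48 ± 0.76 RPKM, IL7R lay above IL20RB (0.852 against 0.491 RPKM), and IL21R above IL15RA (0.264 against 0.031 RPKM). Some places depended on the gene model. With the length of all annotated exons in place of the canonical transcript, IL10RB ranked 4 of 10 in both groups, and IL21R ranked above IL15RA in vehicle too.

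The differences were also set beside those of genes of like abundance, since low genes tended to be higher with Liq. Tested genes were put into 10 bins by level. IL21R and IL20RB fell in the lowest bin, where the median log2 fold change was 0.25 and 10.4% of genes were called higher. IL7R fell in the second bin, with a median of 0.20 and 16.1% called higher. IL13RA2 lay in the third bin, with a median of 0.10. In the bin of IL4R the median was 0.00 and 0.738% of genes were called lower at 1.5-fold.

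**Figure D3:**
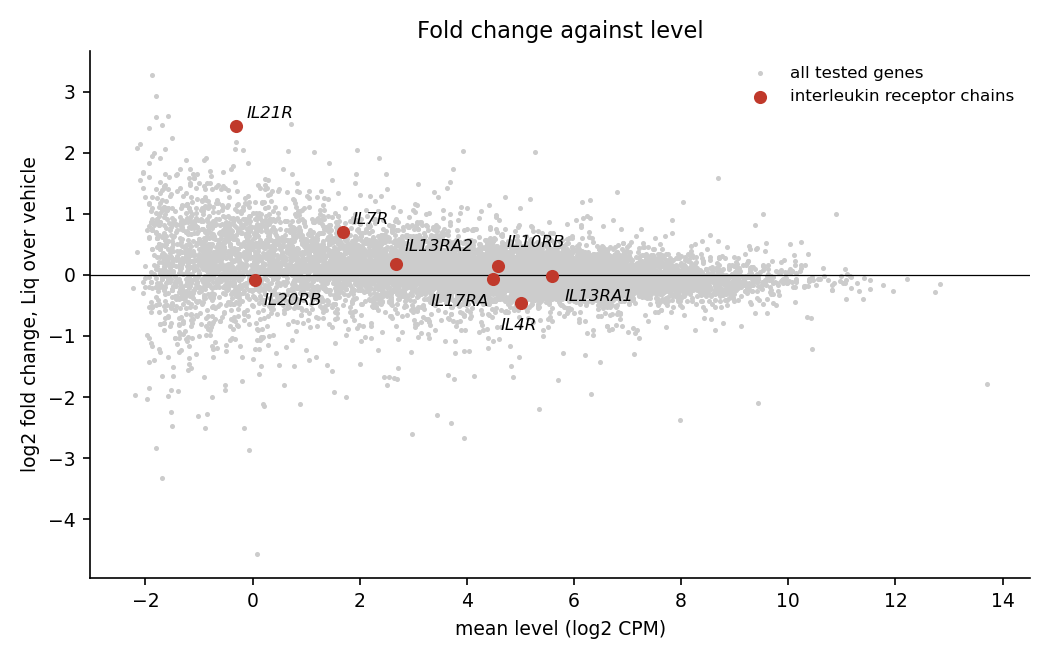
Log2 fold change, Liq over vehicle, against mean level in log2 CPM for all 13546 tested genes (grey) and the 8 fitted interleukin receptor chains (red). IL21R, at 2.44, lies near the upper edge of the cloud at its level, and IL7R lies among genes whose median is 0.20.

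IL4R and IL21R are next to each other on chromosome 16, with a gap of 37.4 kb, and were on opposite sides of the vehicle level. The tested genes that flank the pair had log2 fold changes near 0, -0.04 (SE 0.08) for NSMCE1, a subunit of the SMC5/6 complex, and -0.10 (SE 0.07) for GTF3C1, a subunit of transcription factor IIIC. IL10RB lies in a run of class II receptor genes on chromosome 21, 0.7 kb beyond IFNAR2. Its interferon receptor neighbours IFNAR2 and IFNAR1 had log2 fold changes of 0.02 (SE 0.10) and -0.09 (SE 0.09). IFNGR2, the second chain of the interferon gamma receptor, was lower with Liq, from 87.6 to 61.9 CPM (log2 fold change -0.50, SE 0.08, adjusted p = 3.22e-05), by less than 1.5-fold. Of the exon bases of IL10RB, 21.6% are shared with a readthrough transcript of IFNAR2 and IL10RB, so part of its reads could belong to either.

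**Figure D4:**
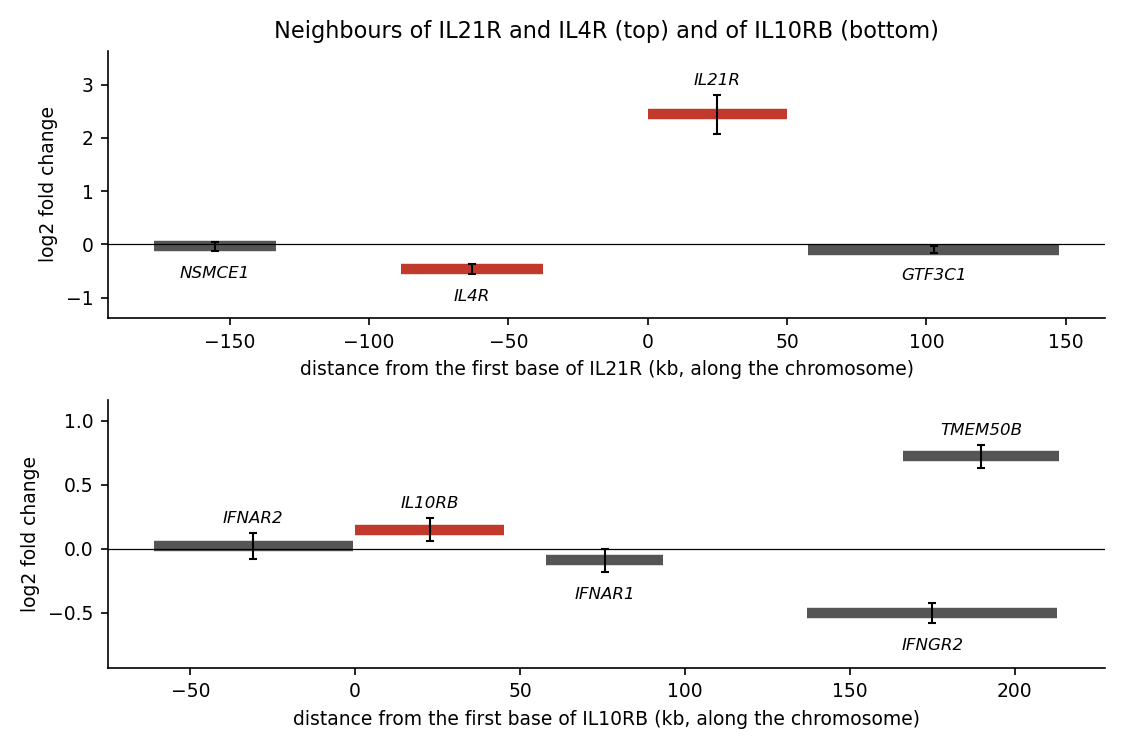
Log2 fold change, Liq over vehicle, of tested genes around IL21R and IL4R (top) and around IL10RB (bottom), drawn as bars from start to end by distance in kb from the first base of IL21R or IL10RB (red, listed chains; black lines, SE). IL21R at 2.44 stands between IL4R at -0.46 and GTF3C1 at -0.10, and IL10RB at 0.15 between IFNAR2 and IFNAR1.

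The partners that the listed chains need had mostly few or no counted reads. IL9R, CRLF2 (the TSLP receptor chain that pairs with IL7R), IL10RA and IL28RA (the interferon lambda chain, now IFNLR1) had 0 counts in all 4 samples. For uniquely aligned reads this allows up to 0.061 to 0.087 CPM per sample. Reads not uniquely aligned (35.6% to 36.2%) were set aside, so a gene whose reads fit more than 1 place would also show 0. Whether this holds for CRLF2, IL9R or the others was not tested, and their 0 counts do not show that they were absent. IL20RA and IL22RA1 had 1 read each, in Liq replicate 2, and IL2RB had 3 to 5 reads per sample. By contrast, IL17RC, which pairs with IL17RA, was at 9.72 CPM with vehicle and 12.2 CPM with Liq (log2 fold change 0.33, SE 0.11, adjusted p = 0.0364), and IL13RA1, the partner of IL4R, was at 12.0 RPKM in vehicle. Within samples the ratio of IL17RC to IL17RA counts was 0.409 and 0.444 in vehicle and 0.588 and 0.531 in Liq, higher in both Liq samples. No error was computed for this ratio. Since groups of this size often lay apart, no shift in this balance is read from it either.

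Of 27 other class I and II chains in the tables, 10 could be tested. None was called higher and 2 were called lower (2.16% of all tested genes were), with a median log2 fold change of -0.11 (0.01 over all tested genes). IL27RA, the IL-27 receptor chain, fell from 15.7 to 10.1 CPM (log2 fold change -0.64, SE 0.11, adjusted p = 0.000104). PRLR, the prolactin receptor, fell from 4.96 to 2.68 CPM (log2 fold change -0.87, SE 0.16, adjusted p = 0.000232). IL27RA came under 1.5-fold without vehicle replicate 1 (-0.55) or without Liq replicate 1 (-0.57), whereas PRLR was called in all 11 alternative fits. EPOR, the erythropoietin receptor, was at 10.7 CPM with vehicle and 13.4 CPM with Liq (log2 fold change 0.32, adjusted p = 0.0319), and IL12RB2, a chain of the IL-12 receptor, at 9.55 and 7.70 CPM (adjusted p = 0.0519).

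Of 11 other IL-17 receptor chains and adaptors, 10 were tested, 0 were called higher and 1 was called lower, against 4.29% and 2.16% of all tested genes. That gene was ZC3H12A, which encodes an RNase that degrades inflammatory transcripts. It fell from 7.26 to 4.60 CPM (log2 fold change -0.67, SE 0.14, adjusted p = 0.000757), though without Liq replicate 2 the log2 fold change was -0.53, under 1.5-fold. The adaptor gene TRAF3IP2 had a log2 fold change of -0.26 (adjusted p = 0.0422) and the receptor gene IL17RD one of 0.30 (adjusted p = 0.0245). NFKBIZ, a gene that IL-17 is known to induce, had one of -0.11 (adjusted p = 0.451).

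The cells made few of the ligands. Of 23 ligand genes in the tables, 16 had 0 counts in every sample, IL4, IL13, IL21, IL17A and IL17F among them, and 4 were tested. By edgeR 0 of these were called, while 2 of the 4 had an unadjusted p-value under 0.05 (36.1% of all tested genes did), and DESeq2's Wald test also called 0. TSLP, a cytokine of epithelial cells that needs CRLF2, was at 14.8 CPM with vehicle and 19.7 CPM with Liq (log2 fold change 0.41, SE 0.10, adjusted p = 0.00466), under 1.5-fold. IL7, the ligand of IL7R, was at 1.45 and 0.982 CPM (log2 fold change -0.56, SE 0.25, adjusted p = 0.104). IL15 and IL17D, the other tested ligands, had log2 fold changes of 0.32 (SE 0.48) and 0.29 (SE 0.16). IL24, which did not pass the filter, had 19 and 7 counts in vehicle and 2 and 9 in Liq, or 0.187 to 0.462 CPM against 0.056 to 0.179 CPM. IL2 and IL17B had at most 2 counts per sample.

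**Figure D5:**
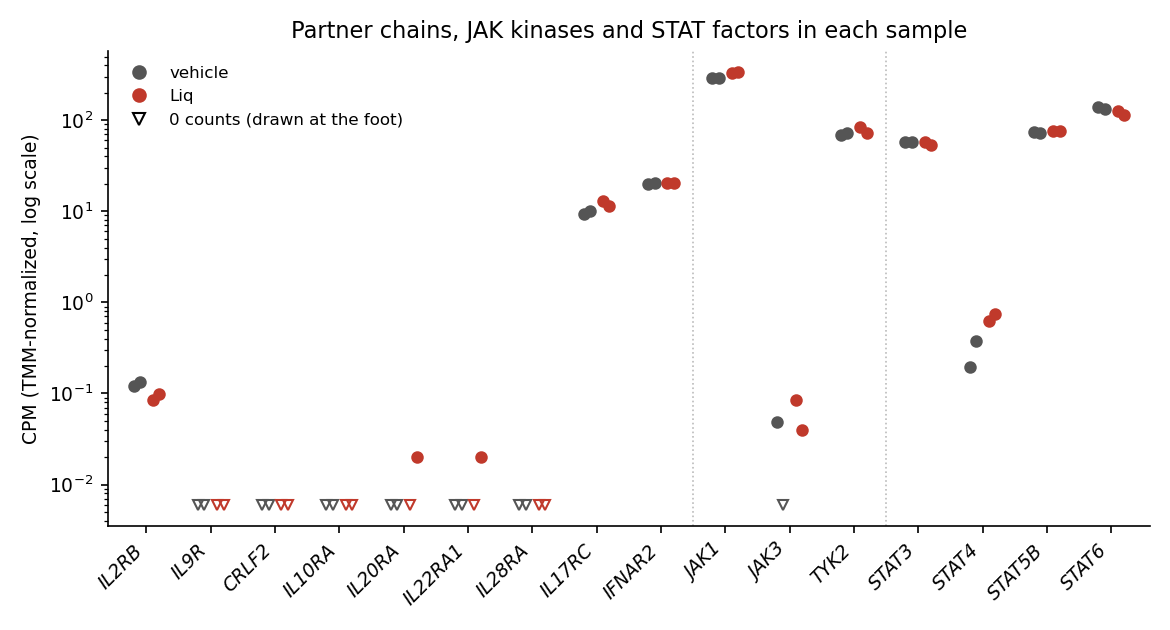
Level of partner chains (left), JAK kinases (middle) and STAT factors (right) in each sample, in TMM-normalized CPM on a log axis (grey, vehicle; red, Liq; open triangles, samples with 0 counts). Most partner chains sit at or near 0, JAK1 is the highest of the plotted genes at 288 and 333 CPM on average, and STAT4 differs between the groups at a low level.

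Apart from JAK3, with 0 to 3 counts, the JAK and STAT genes had enough reads to be tested. Of the 11 JAK and STAT genes, 10 were tested and 1 was called, upward, against 4.29% of all tested genes. JAK1, which binds IL4R, IL7R and IL21R, was at 288 CPM with vehicle and 333 CPM with Liq (log2 fold change 0.21, SE 0.07, adjusted p = 0.023). STAT6, the main factor below IL4R, was at 137 and 119 CPM (log2 fold change -0.21, SE 0.08, adjusted p = 0.0422), and STAT2, a factor of interferon signaling, at 37.1 and 44.9 CPM (0.27, SE 0.09, adjusted p = 0.0212). STAT4, known from IL-12 signaling in lymphocytes, had 8 and 14 counts in vehicle and 22 and 37 in Liq and rose (log2 fold change 1.28, SE 0.39, adjusted p = 0.0188). That call rested on few reads. It was lost without vehicle replicate 1 (log2 fold change 0.87, adjusted p = 0.322), without Liq replicate 2 (1.13, adjusted p = 0.0991), with loess offsets (1.02, adjusted p = 0.0687) and by DESeq2 (1.26, adjusted p = 0.185).

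Of 17 negative regulators of JAK-STAT signaling, 16 were tested and edgeR called 0, with 5 at an unadjusted p-value under 0.05 (against 36.1% of all tested genes) and 0 called by DESeq2. Their median log2 fold change was -0.05. SH2B3, an adaptor that restrains JAK2, came nearest, from 237 to 160 CPM (log2 fold change -0.57, SE 0.07, adjusted p = 7.23e-07), just under 1.5-fold. SOCS3, a feedback inhibitor that STAT3 induces, was at 51.2 and 65.4 CPM (log2 fold change 0.35, adjusted p = 0.00264), SOCS2 at 23.2 and 19.4 CPM (adjusted p = 0.0465) and the phosphatase gene PTPN2 at 46.3 and 37.8 CPM (adjusted p = 0.014).

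Of 25 genes known to be induced through STAT5 and STAT6, 13 were tested and edgeR called 0, with 7 at an unadjusted p-value under 0.05 (again against 36.1%) and 0 called by DESeq2. Their median log2 fold change was 0.03. CISH and SOCS1, direct targets of STAT5 and STAT6, had log2 fold changes of 0.16 (SE 0.36) and -0.48 (SE 0.31). CCL26, an eosinophil chemokine that IL-4 and IL-13 induce, had 14 and 15 counts in vehicle and 18 and 14 in Liq. TGM2, which encodes transglutaminase 2, was the most abundant of the list, at 2469 CPM with vehicle and 1869 CPM with Liq (log2 fold change -0.40, SE 0.06, adjusted p = 1.32e-05). BCL2, an apoptosis inhibitor, was at 20.7 and 26.0 CPM (log2 fold change 0.33, adjusted p = 0.0125).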

How the data were processed

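RNA-seq of ES2 cells treated with vehicle or Liq for 24 h was analysed (2 samples per group, from the sample labels). Per the labels, 100 bp single-end TruSeq libraries were processed with bcl2fastq 2.17.1.14, aligned to hg19 with TopHat2 2.0.8b and counted per gene with HTSeq. The strand setting is not given in the sources used here. The authors deposited raw read counts per gene, not normalized, filtered or pooled. The tally lines that close each table were left out. Genes held 54.1% to 55.6% of all reads, and 35.6% to 36.2% had been set aside as not uniquely aligned.

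Counts were fitted in R 4.3.3 with edgeR 4.0.16 (filterByExpr with a minimum count of 10 and total of 15, TMM, glmQLFit and glmQLFTest, no replicate block) over 13546 genes. Genes were called at 1.5-fold with a Benjamini-Hochberg adjusted p-value under 0.05. The SE is the log2 fold change divided by the square root of F. For any one gene, exact permutation of 2 and 2 samples has a smallest two-sided p of 0.3333. The pipeline was tested on simulated data. Positions and transcript lengths are from GENCODE on GRCh37, which matched 82.4% of symbols, and promoters from RefSeq on GRCh38.p14; no coordinates were converted.

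The listed chains and the pathway lists were chosen with earlier results of these data known. Named genes were all 10 chains, called pathway genes, tested pathway genes with the smallest p-values (up to 5 names per list, marker lists aside), fixed partner chains and ligands with reads. A few others (JAK3, NFKBIZ, LYZ, CSF1R, NCAM1, KRT7, WT1, CISH, SOCS1, CCL26 and the genes beside IL21R and IL10RB) were named after their values were seen. Alternatives used other normalizations, filters, thresholds and DESeq2 1.42.0, the replicate number as a block, and each sample left out.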

Additional observations from a re-analysis of the deposited data

How the results depend on the processing

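Over 14 alternatives and 8 counts of calls, 87 values stayed within 1.5 times the reported count and 25 did not. For all genes (874), DESeq2's Wald test called 566, a fold change of at least 2 left 328 and no fold threshold gave 3245. With loess offsets the split of all calls moved from 581 higher and 293 lower to 350 higher and 394 lower. For the listed chains (2), the count was 1 with loess offsets (IL7R lost), with at least 10 counts in every sample (IL21R not tested) and at 2-fold, and 1 to 2 with 1 sample left out. At 2-fold, other class I and II chains and IL-17 chains and adaptors each had 0 calls. Without a fold threshold these lists had 4 calls each, ligands 1, JAK and STAT genes 4, negative regulators 4 and STAT-induced genes 6. With 1 sample left out, calls ranged from 1 to 2 for other class I and II chains, and from 0 to 1 for IL-17 chains and adaptors, ligands and JAK and STAT genes. Loess offsets gave 1 ligand (IL7, lower) and 0 JAK and STAT genes, and the latter also had 0 with DESeq2 and, since STAT4 was then not tested, with at least 10 counts in every sample. The cause of the other shifts was not tested.

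With the replicate number as a block, 898 of all genes and 2 of the listed chains were called, and no count for a list moved. Samples that shared a number showed no common deviation (correlation 0.0483), so the numbers were not taken as pairs. Of the 8 fitted chains, 7 kept the sign of their fold change in every alternative, and IL13RA1, with a value near 0, kept it in 6 of 11. Depth limits what can be said of IL15RA, IL2RG and IL20RB. With single samples left out, the lone sample of a group was assumed to vary like the other group.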

Other observations

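Beside the class II receptor genes of chromosome 21, IFNGR2 and TMEM50B overlap on opposite strands and had opposite differences. TMEM50B, a membrane protein gene (chromosome 21 from 34804792 to 34852281, minus strand, GRCh37), rose from 22.4 to 36.9 CPM (log2 fold change 0.72, SE 0.09, edgeR adjusted p = 1.55e-06), and IFNGR2 had a log2 fold change of -0.50. The strand setting of the counting is not given in the sources used here, and its part in these values was not tested.

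Of 3 tested leukocyte markers, 1 was called higher and 2 lower, against 4.29% and 2.16% of all tested genes. NCAM1, a neural adhesion molecule, rose from 6.16 to 11.2 CPM (log2 fold change 0.87, SE 0.12, edgeR adjusted p = 4.52e-06). CSF1R, the receptor of colony stimulating factor 1, fell from 0.798 to 0.318 CPM (log2 fold change -1.34, SE 0.36, adjusted p = 0.00735), and LYZ, which encodes lysozyme, from 0.480 to 0.202 CPM (-1.27, SE 0.45, adjusted p = 0.0407). Of 9 tested ovarian and epithelial markers, 0 were called higher and 2 lower (2.16% of all tested genes were called lower). These were the transcription factor genes PAX8 and WT1, with log2 fold changes of -1.34 for PAX8 (SE 0.31, adjusted p = 0.00214) and -0.68 for WT1 (SE 0.16, adjusted p = 0.00285). KRT7, a keratin gene with the smallest adjusted p of that list, was at 252 CPM with vehicle and 357 CPM with Liq (0.51, SE 0.07, adjusted p = 1.08e-05), under 1.5-fold.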
